A study of Mus musculus with 30 samples.

Results

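Surface molecules through which activated B cells speak to T cells, or which mark activation itself, were followed through 10 genes across mouse B cell cultures that differed in the dose of the transcription factor Irf4. The members were Cd80, Cd86, Icosl, Cd274, Pdcd1lg2, Fcer2a, Fcgr2b, Cd69, Cd44 and Cd83, each read by every probe set annotated to that symbol alone. They made up 10 of the 12183 genes tested and 23 of 45037 probe sets, and 19 of the 23 sets passed the filter on low values, at least 1 for every gene. The sets that did not pass were 1454372_at of Cd80, 1443265_at of Cd44, 1426087_at of Icosl and 1447622_at of Fcgr2b.

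CD80 and CD86 are the paired ligands through which antigen-presenting cells engage CD28, which costimulates T cells, and CTLA-4, which restrains them. ICOS ligand, encoded by Icosl, engages ICOS on follicular helper T cells, while PD-L1 (Cd274) and PD-L2 (Pdcd1lg2) bind the inhibitory receptor PD-1. CD23 (Fcer2a) is the low-affinity IgE receptor, which IL-4 and CD40 signals raise on follicular B cells, and the inhibitory Fc receptor FcγRIIB (Fcgr2b) dampens B cell receptor signalling when IgG complexes bind. CD69 opposes the egress receptor S1PR1, CD44 binds hyaluronan, and CD83 marks activated B cells and dendritic cells. Differentiation into plasma cells lowers much of the antigen-presenting surface of a B cell.

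RNA of 30 cultures was hybridised to whole-genome Affymetrix arrays, in 10 groups of 3. All cells were splenic B cells of the C57BL/6, B1-8i background, in which a rearranged heavy chain is inserted in the immunoglobulin locus. Wild-type cells (Irf4+/+) were taken unstimulated at day 0 and after 1 and 3 days with CD40L, IL-2, IL-4 and IL-5. The other cells came from Irf4-/- mice that carry an Irf4 gene induced by doxycycline, and are called KO here at every dose. They were taken at day 0 without doxycycline and, under the same stimulation, after 1 and 3 days in 3 doses of doxycycline, which are called zero DOX (0 ng/mL), low DOX (16 ng/mL) and high DOX (100 ng/mL). Wild-type cells were given no doxycycline, so its own effect was not measured in cells with intact Irf4. Per the series text each replicate was an individual mouse, and 2 of the 3 replicates were cultured side by side and the other on its own occasion, without saying which. The promoter behind the inducible gene, and the cells in which it acts, are not given in the sources used here. Values are the authors' normalized intensities, given as log2(intensity + 16), and a gene is read by the brightest of its tested probe sets, on average over all arrays, unless another set is named. SD is the spread of the 3 arrays of a group. Differences are tested in limma over all 26095 probe sets, and a gene is called where its adjusted p is under 0.05.

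The labels were checked with Irf4 set 1421174_at, which followed doxycycline. At day 3 it read 7.34 to 7.68 with zero DOX, 12.94 to 13.09 with low DOX and 13.53 to 13.66 with high DOX. It read 7.23 to 8.07 in wild type on all days and 7.87 to 8.21 in KO cells at day 0. Since it did not tell wild type from KO cells without doxycycline, it checked the dose labels and not the genotype. Nor does it place the doses against the Irf4 level of wild-type cells. At day 1 the KO array labelled zero DOX replicate 2 read 10.77, while the others of its group read 7.84 and 7.80. For low DOX, replicate 2 by its label read 7.69, and its fellow arrays read 11.17 and 10.89. Both went against their labels, so day 1 counts, and the calls that change, are also given without them. The other Irf4 set, 1421173_at, did not follow doxycycline (at day 3, 11.1 ± 0.29 with zero DOX and 11.19 ± 0.17 with high DOX). Array medians lay between 171.4 and 199.7. KO replicates 1 and 2 carried male transcripts, while KO replicate 3 and all wild-type arrays were female, so sex was partly confounded with genotype. All 7 tested B cell markers were read in every group. Transcripts of myeloid cells accompanied the KO cultures: the summed intensity of 16 myeloid markers lay at 8261 to 21129 in KO cells at day 0 and at 10539 to 20055 at day 3 with zero DOX. It lay at 4603 to 7977 with low DOX and at 2424 to 3408 with high DOX at day 3, and at 2342 to 3915 in wild type over all days. Myeloid cells themselves carry several of the molecules described here, and in these bulk samples fewer cells of a type and less RNA per cell cannot be told apart.

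**Figure D1:**
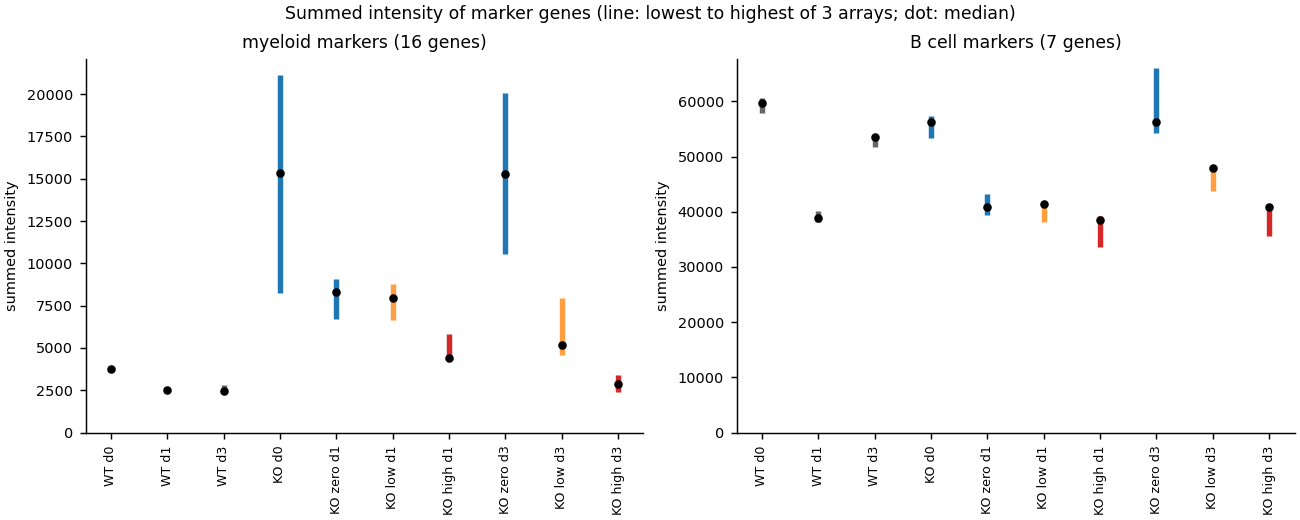
Summed intensity (linear scale from 0) of 16 myeloid markers and of 7 B cell markers in the 10 groups; the line runs from the lowest to the highest of 3 arrays and the dot is the median. The myeloid sum was highest in KO cells at day 0 and at day 3 with zero DOX, and with high DOX at day 3 (2424 to 3408) it overlapped wild type at day 3 (2433 to 2805).

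For 5 of the members an upstream sequence is shown that held a match to an element of a factor that CD40, IL-4 or Irf4 act through. RefSeq start sites (GRCm38.p6) were found for 7 of the 10 genes: Cd44, Cd80, Cd274, Fcer2a with 3 starts, Fcgr2b, Icosl and Pdcd1lg2. Each line gives the 250 bases before a start, 5′ to 3′ in the direction of transcription, with matches on either strand in capitals.
Cd80, chr16:38458683-38458932, plus strand: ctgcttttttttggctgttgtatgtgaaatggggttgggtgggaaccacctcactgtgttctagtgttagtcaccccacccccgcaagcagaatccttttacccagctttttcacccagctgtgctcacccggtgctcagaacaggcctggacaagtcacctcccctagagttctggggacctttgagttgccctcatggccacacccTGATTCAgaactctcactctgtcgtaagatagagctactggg
Icosl, chr10:78069118-78069367, plus strand: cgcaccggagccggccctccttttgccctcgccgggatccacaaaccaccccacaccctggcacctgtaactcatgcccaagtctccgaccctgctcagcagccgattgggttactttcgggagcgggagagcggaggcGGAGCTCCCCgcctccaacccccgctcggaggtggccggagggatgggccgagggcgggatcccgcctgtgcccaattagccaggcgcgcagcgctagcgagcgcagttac
Pdcd1lg2, chr19:29410669-29410918, plus strand: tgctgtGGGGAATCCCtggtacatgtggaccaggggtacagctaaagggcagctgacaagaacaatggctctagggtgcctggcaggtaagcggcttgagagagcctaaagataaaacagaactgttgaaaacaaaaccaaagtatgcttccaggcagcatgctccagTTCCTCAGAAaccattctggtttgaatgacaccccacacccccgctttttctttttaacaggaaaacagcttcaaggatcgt
Fcer2a, chr8:3690862-3691111, minus strand: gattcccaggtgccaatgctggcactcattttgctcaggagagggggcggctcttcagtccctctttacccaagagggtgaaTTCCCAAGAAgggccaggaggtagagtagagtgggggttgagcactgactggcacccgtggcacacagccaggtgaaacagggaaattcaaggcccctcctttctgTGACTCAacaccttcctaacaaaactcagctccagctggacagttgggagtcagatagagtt
Fcgr2b, chr1:170976072-170976321, minus strand: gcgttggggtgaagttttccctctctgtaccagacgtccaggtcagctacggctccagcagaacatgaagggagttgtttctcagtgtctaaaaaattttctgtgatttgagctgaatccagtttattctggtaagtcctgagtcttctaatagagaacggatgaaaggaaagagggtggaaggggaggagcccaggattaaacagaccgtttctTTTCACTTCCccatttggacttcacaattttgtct

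The capitals mark an AP-1 element (TGANTCA) in Cd80 and Fcer2a, a STAT element with 4 spacer letters (TTCNNNNGAA) in Pdcd1lg2 and Fcer2a, a kappaB element in Icosl and Pdcd1lg2, and an Ets-IRF composite element (GGAANNGAAA, on the minus strand) in Fcgr2b. In Cd80 the AP-1 match TGATTCA lay 42 to 36 bases before the start. In Fcgr2b the composite match TTTCACTTCC lay 35 to 26 bases before it. Pdcd1lg2 and Cd274, which both encode PD-1 ligands, had starts on the same stretch of chromosome 19, and the Cd274 window held none of the elements searched. Among 32851 windows of the same length, 6.75% held the AP-1 letters, 5.85% the STAT letters, 7.25% the kappaB element and 2.3% the composite letters. The IRF element GAAANNGAAA (2.98% of windows) and the STAT element with 3 spacer letters, TTCNNNGAA (7.02%), had no match in the 9 member windows. The Cd44 window held a STAT match with 4 spacer letters and that of the most upstream Fcer2a start an AP-1 match, and neither is shown. A match describes letters only, and binding was not measured.

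**Figure D2:**
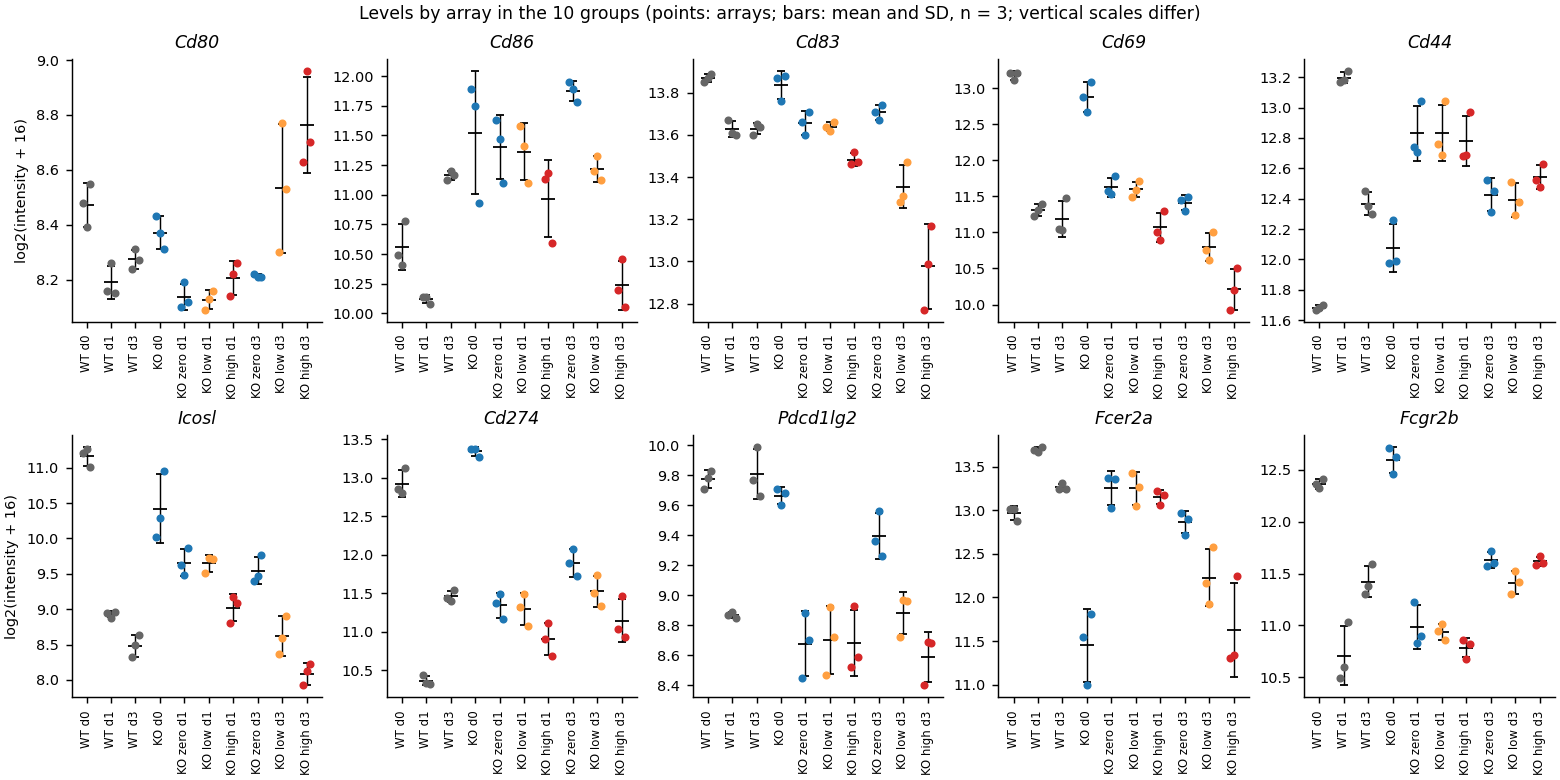
Level of each of the 10 genes on the log2(intensity + 16) scale in the 10 groups (WT is wild type, d is day, and zero, low and high are the DOX doses); points are arrays, and bars give the mean and SD of 3 arrays. Vertical scales differ between panels. With high DOX at day 3, Cd80 was at its highest and Cd83, Cd69, Icosl and Pdcd1lg2 were at their lowest.

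The 10 genes fell into a few courses over the 10 groups. Cd69 and Icosl were highest in unstimulated wild-type cells (13.18 ± 0.063 and 11.16 ± 0.13, SD, n = 3) and lowest with high DOX at day 3 (10.21 ± 0.29 and 8.08 ± 0.15). Cd83 had the same extremes over a narrower range (13.87 ± 0.023 to 12.98 ± 0.2). Cd274 and Fcgr2b were highest in unstimulated KO cells (13.34 ± 0.063 and 12.6 ± 0.13) and lowest in wild type at day 1 (10.37 ± 0.067 and 10.71 ± 0.29). Cd44 ran the other way, from 11.68 ± 0.017 in unstimulated wild-type cells to 13.2 ± 0.04 in wild type at day 1.

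Cd86 was highest in KO cells at day 3 with zero DOX (11.87 ± 0.085) and lowest in wild type at day 1 (10.12 ± 0.035). Cd80 was highest with high DOX at day 3 (8.77 ± 0.17) and lowest in KO cells at day 1 with low DOX (8.13 ± 0.035). Pdcd1lg2 was highest in wild type at day 3 (9.81 ± 0.17) and lowest with high DOX at day 3 (8.59 ± 0.17). Fcer2a was highest in wild type at day 1 (13.7 ± 0.028) and lowest in unstimulated KO cells (11.45 ± 0.42). Of the 9 neighbouring pairs in each gene's order of groups, few were separate: arrays did not overlap in 4 pairs for Cd69, Cd44 and Icosl, in 3 for Cd83, Cd274, Pdcd1lg2, Fcer2a and Fcgr2b, in 1 for Cd80 and in none for Cd86. The Cd80 pair was barely apart, with zero DOX reaching 8.22 and wild type starting at 8.24 at day 3. Such pairs were not counted over all sets.

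Stimulation of wild-type cells for 1 day was accompanied by lower Cd274, Icosl, Cd69, Fcgr2b and Pdcd1lg2 and by higher Cd44 and Fcer2a. All 10 genes were called, 2 higher and 8 lower, in a comparison in which 80.1% of probe sets were called (percent of 26095), so the count itself does not set the members apart. Their median difference was -0.67, against -0.17 over all sets. Cd274 read 12.85, 12.80 and 13.13 in the day 0 arrays and 10.44, 10.34 and 10.32 at day 1. All day 1 arrays lay below all day 0 arrays, and the fall was 2.56 on the log2 scale (SE 0.136, adjusted p = 2.2e-14). Icosl read 11.21, 11.27 and 11.01 before stimulation and 8.95, 8.88 and 8.96 after 1 day. It too separated the days completely, with a difference of -2.23 (SE 0.172, adjusted p = 2.4e-11).

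Cd69, induced early by receptor signals, was already high in the freshly isolated cells (13.21, 13.11 and 13.22) and lower after 1 day (11.23, 11.31 and 11.39; difference -1.87, SE 0.139). Fcgr2b read 12.36, 12.32 and 12.41 at day 0 and 10.49, 10.60 and 11.03 at day 1 (difference -1.66, SE 0.111), and its 3 other tested sets fell by 1.48 to 1.65. Pdcd1lg2 went from 9.71, 9.78 and 9.83 to 8.87, 8.89 and 8.85 (difference -0.91, SE 0.124). In each of these genes the groups did not overlap, which was not counted over all sets. Cd44 read 11.67, 11.68 and 11.70 before and 13.17, 13.18 and 13.24 after 1 day. This rise of 1.52 (SE 0.0992, adjusted p = 1.1e-12) was 3.32 (SE 0.164) by set 1452483_a_at and 1.76 by 1423760_at. Fcer2a, the IL-4-responsive IgE receptor, rose from 13.01, 13.02 and 12.88 to 13.69, 13.67 and 13.73, by 0.72 (SE 0.199, adjusted p = 0.0021), and by 1.82 (SE 0.273) on set 1451713_a_at.

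For both CD28 ligands the direction over day 1 depended on the probe set. Cd86 fell by 0.44 (SE 0.189, adjusted p = 0.038) on set 1420404_at, from 10.49, 10.41 and 10.78 to 10.14, 10.14 and 10.08. On set 1449858_at it rose by 0.94 (SE 0.146, adjusted p = 2.8e-06), from 9.31, 9.42 and 9.46 to 10.45, 10.36 and 10.22. The fall was no longer called without day 0 replicate 1 or 3 or without any 1 day 1 array (differences -0.327 to -0.472). Cd80 fell by 0.28 (SE 0.0831) on set 1427717_at and rose by 1.00 (SE 0.291, adjusted p = 0.0031) on 1432826_a_at, which went from 6.22, 6.07 and 6.22 to 7.30, 7.04 and 7.18. Its remaining tested set, 1451950_a_at, differed by 0.30 (adjusted p = 0.14). In wild type both of these sets read under the filter's cutoff of 188.2 in intensity on all days. Intensities were 51 to 142 for 1432826_a_at and 138 to 182 for 1451950_a_at, so the rise of Cd80 is between low values. Set 1432826_a_at passed the filter through 12 of the 30 arrays. Cd83 read 0.24 lower at day 1 (SE 0.0664). Centring arrays on their medians moved the median of all sets by 0.162 here, and the calls of Cd80 (-0.12), Cd83 (-0.075) and Cd86 (-0.275) were then lost. With it the share of higher sets among all those called went from 39.6% to 50.5%. Markers of cell types were lower at day 1 as well: 6 of 7 of B cells (median -0.72), all 8 of T cells (-0.86), 4 of 5 of NK cells (-1.01), 4 of 5 of plasma cells (-0.95), 3 of 4 of dendritic cells (-0.79), 2 of 3 of platelets and 8 of 16 of myeloid cells (-0.58). In each of the B cell, plasma cell, dendritic cell, platelet and myeloid lists 1 marker was higher. The part of these cells in the falls was not tested.

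From day 1 to day 3 Cd274, Cd86, Pdcd1lg2 and Fcgr2b rose in wild-type cells, while Cd44 and Icosl fell. In this comparison 65.4% of sets were called, and of the 10 genes 4 rose, 2 fell and 4 were not called (median 0.04, and 0.08 over all sets). Cd274 rose by 1.09 (SE 0.136) to 11.44, 11.40 and 11.54, which still lay below every day 0 array. Cd86 rose by 1.04 (SE 0.189, adjusted p = 4.7e-05) to 11.12, 11.20 and 11.17, above every wild-type array of the earlier days, and its other set rose too, by 0.71. Pdcd1lg2 rose by 0.94 (SE 0.124) to 9.77, 9.99 and 9.66, and Fcgr2b by 0.71 (SE 0.111) to 11.30, 11.38 and 11.59. Cd44 fell by 0.83 (SE 0.0992), and Icosl fell further, by 0.45 (SE 0.172, adjusted p = 0.026). The Icosl call was lost without day 1 replicate 1 or 3 or day 3 replicate 1 or 2 (-0.369 to -0.454). Fcer2a differed by -0.43 (adjusted p = 0.059), and its other set fell by 0.68 (adjusted p = 0.033). Cd80, Cd83 and Cd69 differed by 0.08, 0 and -0.12. Beside them 6 of 7 B cell (median 0.65), 4 of 5 plasma cell (1.33), 6 of 8 T cell (0.31) and 3 of 5 NK cell markers (0.94) were higher. So were 2 of 3 platelet, 3 of 16 myeloid and 1 of 4 dendritic cell markers. Lower were 2 myeloid markers and 1 marker each of B cells, plasma cells and dendritic cells. The part of these cells was not tested.

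KO cells without doxycycline followed a like course over day 1, with Cd274, Fcgr2b, Cd69, Pdcd1lg2 and Icosl lower and Fcer2a and Cd44 higher. Of the 10 genes 2 rose and 7 fell, and 69.8% of all sets were called; the median was -0.50, and 0.00 over all sets. Cd274 went from 13.38, 13.38 and 13.27 to 11.38, 11.49 and 11.17 (difference -2.00, SE 0.136). Fcer2a had stood low in unstimulated KO cells, at 11.55, 10.99 and 11.81, and rose to 13.37, 13.03 and 13.36 (difference 1.80, SE 0.199, adjusted p = 1.6e-08). Here the middle array of day 1 is the one labelled zero DOX replicate 2. Fcgr2b fell by 1.61, Cd69 by 1.25, Pdcd1lg2 by 0.98 and Icosl by 0.76, and Cd44 rose by 0.75. Cd80 and Cd86 again split by set. Cd80 fell by 0.23 on 1427717_at and rose by 1.00 on 1432826_a_at (SE 0.291), which was low at day 0 (intensities 43 to 132). Cd86 differed by -0.13 on 1420404_at (adjusted p = 0.56, and -0.426 with adjusted p = 0.026 without KO day 0 replicate 3) and rose by 1.11 on 1449858_at (SE 0.146). The small fall of Cd83 (-0.18, adjusted p = 0.019) was lost without KO day 0 replicate 1 or 3 or the array labelled zero DOX replicate 2 (-0.151 to -0.163), and that of Cd80 without KO day 0 replicate 1 (-0.205). Without both day 1 arrays that went against their labels 2 genes rose and 6 fell, Cd83 being lost, where 66.5% of sets were called. Myeloid sums went from 8261 to 21129 at day 0 to 6708 to 9081 at day 1. B cell markers were lower in 4 of 7 cases, T cell markers in 7 of 8 and NK cell markers in 5 of 5, and the part of these cells was not tested.

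From day 1 to day 3 with zero DOX, 4 genes rose and 1 fell while 49.1% of sets were called (median 0.06, and 0.00 over all sets). Pdcd1lg2 rose by 0.72 (SE 0.124), Fcgr2b by 0.64 (SE 0.111), Cd274 by 0.55 (SE 0.136) and Cd86 by 0.48 (SE 0.189, adjusted p = 0.041), and Cd44 fell by 0.40 (SE 0.0992). The Cd86 call was lost without day 1 replicate 2 or 3 or any 1 day 3 array (0.326 to 0.522). With the replicate number as a block among KO arrays, the Cd69 difference of -0.22 also passed (adjusted p = 0.036, and 0.21 without the block). Without both day 1 arrays that went against their labels 3 genes rose and 1 fell, where 43.6% of sets were called, and Cd86 was lost (0.508, adjusted p = 0.068). Myeloid sums were higher at day 3, at 10539 to 20055 against 6708 to 9081, as were all 7 B cell markers (median 0.72) and all 5 NK cell markers (2.34).

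Stimulation over day 1 was not the same in the genotypes for 5 of the 10 genes, tested as the interaction of genotype and day. In that test 41.8% of sets were called, so the count itself does not set the members apart. Icosl fell by 2.23 in wild type and by 0.76 in KO cells, an interaction of 1.47 (KO change minus wild-type change, SE 0.243, adjusted p = 1e-04). Cd44 rose by 1.52 in wild type and by 0.75 in KO cells, an interaction of -0.76 (SE 0.14, adjusted p = 0.00028), and of -1.94 (SE 0.231) on set 1452483_a_at. Fcer2a rose by 0.72 and 1.80, an interaction of 1.08 (SE 0.281, adjusted p = 0.0043), but its set 1451713_a_at gave 0.84 with adjusted p = 0.083. Those for Cd69 (0.62, adjusted p = 0.015) and Cd274 (0.56, adjusted p = 0.023) were lost with median centring (0.449 and 0.393). The Cd274 interaction was also lost without the KO array labelled zero DOX replicate 2 (0.492) or wild-type day 0 replicate 3 (0.464). Without both arrays that went against their labels the other 4 genes were called, where 35.8% of sets were. Over all 10 genes the median interaction was 0.18, and 0.08 over all sets.

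For day 3 against day 1 the interaction was called for 28.4% of sets and for 2 genes, Cd274 (-0.54, SE 0.193, adjusted p = 0.039) and Cd44 (0.43, SE 0.14, adjusted p = 0.026). This count does not set the members apart either. Neither gene passed without both day 1 arrays that went against their labels (-0.470 and 0.367). Leaving out 1 array, Cd274 kept its call only without KO day 1 replicate 3, KO day 3 replicate 2 or wild-type day 1 replicate 1, among 12 arrays. Cd44 lost it without KO day 1 replicate 1 or 2, KO day 3 replicate 1, wild-type day 1 replicate 3 or wild-type day 3 replicate 2 or 3 (0.367 to 0.419). The median over the 10 genes was -0.04, and -0.04 over all sets.

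Before stimulation, KO cells carried less Fcer2a and Icosl and more Cd86, Cd44 and Cd274 than wild type. With 5 of 10 genes called (3 higher, 2 lower) against 30.4% of sets, the median over the genes was -0.07, and -0.03 over all sets. Fcer2a read 11.55, 10.99 and 11.81 in KO cells and 13.01, 13.02 and 12.88 in wild type, with no overlap (difference -1.52, SE 0.199, adjusted p = 5e-06; -1.83 on its other set). Its lowest KO array, replicate 2, also had the largest 3′ to 5′ difference of the Gapdh control sets, 0.254. Cd86 read 11.89, 11.75 and 10.93 in KO cells and 10.49, 10.41 and 10.78 in wild type (difference 0.97, SE 0.189, adjusted p = 0.00047; 0.87 on its other set). KO replicate 3, female like all wild-type arrays, lay near wild type, and the other KO arrays, which were male, lay well above it. With 1 female KO mouse, sex cannot be told apart from that mouse. The Cd86 call was kept in every alternative, a term for sex among them. Icosl read 10.02, 10.29 and 10.96 in KO cells, below 11.21, 11.27 and 11.01 in wild type (difference -0.74, SE 0.172, adjusted p = 0.0022). Here too KO replicate 3 lay nearest wild type, and the call was lost with only the groups compared (adjusted p = 0.074).

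Cd44 was 0.39 higher in unstimulated KO cells (SE 0.0992, adjusted p = 0.0044) and 0.93 higher by set 1452483_a_at. Cd274 was 0.42 higher (SE 0.136, adjusted p = 0.023), a call that was lost without KO replicate 1 or 2 or wild-type replicate 1 or 2 (0.354 to 0.400) and with a term for sex (0.237). Beside these genes, 14 of the 16 myeloid markers were higher in the KO cells and none lower (median 1.76), and the myeloid sum did not overlap (8261 to 21129 against 3751 to 3915). Of the other lists, 5 of 8 T cell, 4 of 5 NK cell (median 1.17), 3 of 4 dendritic cell (0.41) and 2 of 3 platelet markers were higher and 3 of 5 plasma cell markers lower. Dendritic cells too carry Cd86 and Cd274. Cd69 differed by -0.30 (adjusted p = 0.11) and was called lower without KO replicate 3 (-0.405, adjusted p = 0.04). The part of these cells in the higher Cd86, Cd44 and Cd274 was not tested.

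**Figure D3:**
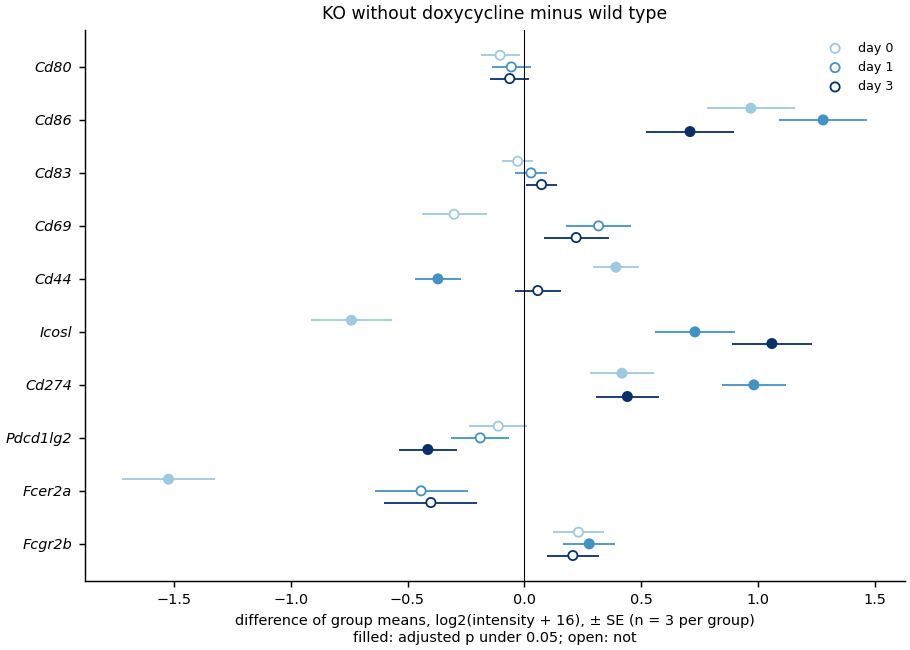
Difference of KO cells without doxycycline from wild type at days 0, 1 and 3, in log2(intensity + 16), with SE (n = 3 per group); filled points have adjusted p under 0.05. Cd86 lies to the right of 0 on each day (0.97, 1.28 and 0.71), and Icosl moves from -0.74 at day 0 to 0.73 and 1.06.

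After stimulation Icosl stood higher in KO cells than in wild type, the reverse of day 0. It read 9.62, 9.49 and 9.87 in KO cells at day 1 against 8.95, 8.88 and 8.96 in wild type (difference 0.73, SE 0.172, adjusted p = 0.0015). At day 3 it read 9.40, 9.47 and 9.76 against 8.32, 8.50 and 8.63 (difference 1.06, SE 0.172, adjusted p = 4.1e-05). The groups did not overlap on either day, and the turn from below to above wild type is the called interaction given above.

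Cd86 was higher in KO cells on every day and on both of its sets. At day 1 it read 11.63, 11.47 and 11.10 against 10.14, 10.14 and 10.08 (difference 1.28, SE 0.189, adjusted p = 1.5e-05). At day 3 the KO arrays read 11.95, 11.89 and 11.78, above 11.12, 11.20 and 11.17 in wild type (difference 0.71, SE 0.189, adjusted p = 0.0053). Set 1449858_at gave 1.03 and 0.62, so here the sets ran together. Cd274 was 0.98 higher at day 1 (SE 0.136, adjusted p = 6.9e-06) and 0.44 higher at day 3 (SE 0.136, adjusted p = 0.014). The day 3 call was lost without KO replicate 2 (0.350) or wild-type replicate 2 (0.409).

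At day 1 Cd44 was 0.37 lower in KO cells (SE 0.0992, adjusted p = 0.0041), and 1.02 lower on set 1452483_a_at. Fcgr2b was 0.28 higher (adjusted p = 0.045) with overlapping arrays, and lost its call without KO replicate 1 or wild-type replicate 1 or 2 (0.154 to 0.223). Its other tested sets gave 0.33 to 0.46, all called. The names of the Fcgr2b sets mark them as able to bind more than 1 transcript. At day 3 Pdcd1lg2 was 0.41 lower (SE 0.124, adjusted p = 0.012), a call lost without KO replicate 3 (-0.345) or wild-type replicate 2 (-0.322). Fcer2a differed by -0.44 and -0.40 at days 1 and 3 (adjusted p = 0.072 and 0.13), while its set 1451713_a_at was lower on both days (-0.99 and -0.87, adjusted p = 0.005 and 0.015). Cd80 and Cd83 differed by at most 0.10 on any day and were not called, and Cd69 was not called at day 1 (0.32, adjusted p = 0.064) or day 3 (0.22, adjusted p = 0.23), but passed on both days with a term for sex (0.502 and 0.406). In all, 4 genes were higher and 1 lower at day 1, where 46.6% of sets were called, and 3 were higher and 1 lower at day 3, where 34.8% were. Without both day 1 arrays that went against their labels the day 1 counts were also 4 and 1, where 37.9% of sets were called (Cd86 1.244, Cd274 0.910, Icosl 0.813, Fcgr2b 0.355, Cd44 -0.310). The medians were 0.15 and 0.14, and 0.05 and 0.01 over all sets.

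Myeloid markers were higher on the same days in KO cells: 14 of 16 at day 1 (sums 6708 to 9081 against 2342 to 2656) and 13 of 16 at day 3 (10539 to 20055 against 2433 to 2805). At day 1, 7 of 8 T cell, 3 of 5 NK cell, 2 of 4 dendritic cell and 1 of 3 platelet markers were higher. Of 5 plasma cell markers 3 were lower and 1 higher. At day 3, 4 of 8 T cell, 5 of 5 NK cell (median 1.69), 2 of 4 dendritic cell and 2 of 3 platelet markers were higher. Lower then were 1 T cell marker, 1 dendritic cell marker and 4 of 5 plasma cell markers (median -1.70). All 10 interferon-induced genes tested were higher on both days (medians 2.18 and 1.36), among them Irf7, a regulator of the interferon response, at day 3 (1.95, SE 0.184). Of 8 NF-kB target genes 7 were higher at day 3 (median 0.75), with Traf1, an adaptor of CD40 signalling, at 1.01. How the cells and lists bear on Cd86, Icosl and Cd274 was not tested. At day 1 centring moved the median of all sets by -0.141 and the share of higher sets among those called from 62.8% to 33.3%. Of the 10 genes 3 were then higher and 4 lower, where 13115 of 26095 sets were called. Fcgr2b was lost, and Cd80 (-0.197), Pdcd1lg2 (-0.331) and Fcer2a (-0.584) were called lower.

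Restoring Irf4 for 3 days was accompanied by lower Cd86, Icosl, Fcer2a, Cd69, Pdcd1lg2, Cd274 and Cd83 and by higher Cd80, while Cd44 and Fcgr2b did not pass the test. Between high and zero DOX 8 of 10 genes were called, 1 higher and 7 lower, where 45.5% of sets were. Their median difference was -0.78, against -0.01 over all sets. Leaving out any 1 of the 6 arrays kept the count at 8. The shares of all sets called in those fits are not given, so that count cannot be set against them.

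Cd86 read 11.95, 11.89 and 11.78 with zero DOX, 11.20, 11.33 and 11.12 with low DOX and 10.20, 10.46 and 10.05 with high DOX. The doses did not overlap, and each step was a fall. High DOX lay 1.64 below zero DOX (SE 0.189, adjusted p = 1.5e-07), which is 3.11-fold, and the other set gave -1.49. Low DOX lay 0.66 below zero DOX (SE 0.189, adjusted p = 0.0097), and high DOX 0.98 below low DOX (SE 0.189, adjusted p = 0.0012).

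Cd80, the other CD28 ligand, ran the opposite way. Set 1427717_at read 8.22, 8.21 and 8.21 with zero DOX, 8.30, 8.77 and 8.53 with low DOX and 8.63, 8.96 and 8.70 with high DOX. All arrays with doxycycline lay above all arrays without it, while the low and high doses overlapped. High DOX lay 0.55 above zero DOX (SE 0.0831, adjusted p = 7.1e-06). The other sets moved further: 1451950_a_at by 1.16 (SE 0.182) and 1432826_a_at by 1.81 (SE 0.291, adjusted p = 1.7e-05), a 3.51-fold difference. On 1432826_a_at the arrays read 7.64, 7.68 and 7.02 with zero DOX and 9.14, 9.62 and 9.01 with high DOX. In intensity its zero DOX arrays read 184, 190 and 114, near or under the filter's cutoff of 188.2. Low DOX lay 0.32 above zero DOX (SE 0.0831, adjusted p = 0.0045), a call lost without low DOX replicate 2 (0.206, adjusted p = 0.05), and 0.83 and 1.27 above it on the other sets. The step from low to high DOX was not called on any tested set of Cd80 (0.23, 0.33 and 0.54). In each same-numbered pair the high DOX array read above the low DOX array on all 3 sets. Such pairs were not counted over all probe sets. With the replicate number as a block over all arrays set 1427717_at passed (adjusted p = 0.049), and with the block among KO arrays alone it had adjusted p = 0.069.

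**Figure D4:**
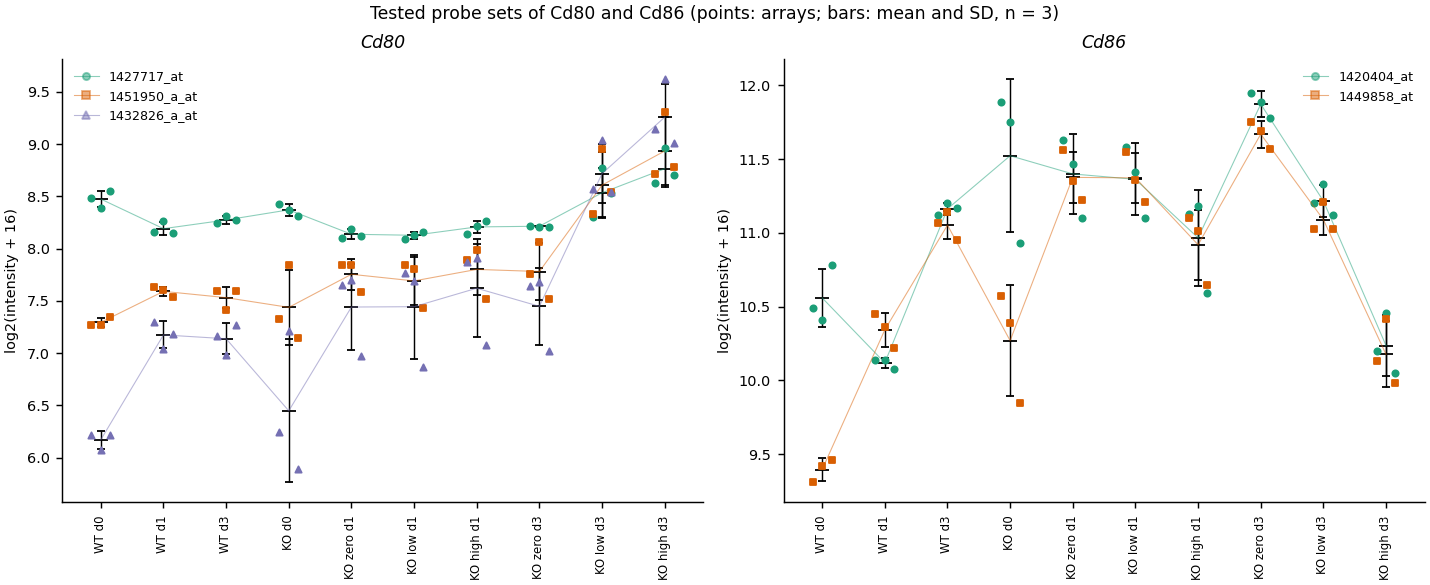
All tested probe sets of Cd80 and Cd86 in the 10 groups, in log2(intensity + 16); points are arrays, bars give the mean and SD of 3 arrays, and thin lines join the means of a set. At day 3 the 3 Cd80 sets rise from zero to high DOX (by 0.55, 1.16 and 1.81) while both Cd86 sets fall (by 1.64 and 1.49).

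Icosl read 9.40, 9.47 and 9.76 with zero DOX, 8.36, 8.59 and 8.91 with low DOX and 7.92, 8.12 and 8.22 with high DOX. It fell at each step without overlap, by 0.92 to low DOX (SE 0.172, adjusted p = 0.00025) and by 1.46 to high DOX (SE 0.172, adjusted p = 2.2e-07) from zero DOX. The step from low to high DOX was -0.54 (adjusted p = 0.047), and lost its call without any 1 high DOX array or low DOX replicate 2 or 3 (-0.391 to -0.604).

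The PD-1 ligands were lower too. Pdcd1lg2 read 9.36, 9.56 and 9.26 with zero DOX, 8.72, 8.97 and 8.96 with low DOX and 8.40, 8.69 and 8.68 with high DOX. High DOX lay 0.80 below zero DOX (SE 0.124, adjusted p = 1e-05) and low DOX 0.51 below it (SE 0.124, adjusted p = 0.0028). Cd274 read 11.89, 12.08 and 11.72 with zero DOX, 11.50, 11.74 and 11.34 with low DOX and 11.04, 11.47 and 10.93 with high DOX. Zero and high DOX did not overlap (difference -0.75, SE 0.136, adjusted p = 7.7e-05). Zero and low DOX did, by the narrow margin of 11.74 over 11.72. That smaller difference (-0.37, adjusted p = 0.04) was lost without low DOX replicate 1 or 3 or zero DOX replicate 1 or 2 (-0.279 to -0.375).

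Among the day 3 groups Fcer2a was lowest with high DOX (11.63 ± 0.54), while unstimulated KO cells read lower still (11.45 ± 0.42). It read 12.97, 12.72 and 12.90 with zero DOX, 12.17, 11.93 and 12.58 with low DOX and 11.30, 11.34 and 12.25 with high DOX, where replicate 3 stayed well above the others. High DOX lay 1.23 below zero DOX (SE 0.199, adjusted p = 1.8e-05) and 1.64 below it on the other set. Low DOX lay 0.63 below zero DOX (adjusted p = 0.018), a call lost without low DOX replicate 1 or 2 or zero DOX replicate 1 (-0.485 to -0.605). The other Fc receptor, Fcgr2b, read 11.57, 11.72 and 11.60 with zero DOX and 11.58, 11.67 and 11.60 with high DOX. These overlap almost wholly (difference -0.01, SE 0.111, adjusted p = 0.95). At low DOX 1 of its 4 tested sets, 1435476_a_at, was lower (-0.29, adjusted p = 0.033), and the others were not called.

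Among the activation markers Cd69 read 11.45, 11.30 and 11.49 with zero DOX, 10.76, 10.62 and 11.01 with low DOX and 9.93, 10.20 and 10.50 with high DOX. It fell without overlap at each step, to 1.20 below zero DOX with high DOX (SE 0.139, adjusted p = 1.5e-07) and 0.61 below it with low DOX (SE 0.139, adjusted p = 0.0016). The step from low to high DOX (-0.59, adjusted p = 0.0065) was lost without high DOX replicate 1 (-0.448) or low DOX replicate 3 (-0.481). Cd83 read 13.71, 13.67 and 13.74, then 13.28, 13.31 and 13.47, then 12.77, 12.99 and 13.17 with rising dose. Its arrays did not overlap at either step, and it was lower by 0.35 with low DOX and by 0.73 with high DOX than with zero DOX (SE 0.0664; adjusted p = 0.00028 and 4e-09). Cd44 read 12.52, 12.31 and 12.45 with zero DOX and 12.52, 12.48 and 12.63 with high DOX, and was not called (0.11, SE 0.0992, adjusted p = 0.37).

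**Figure D5:**
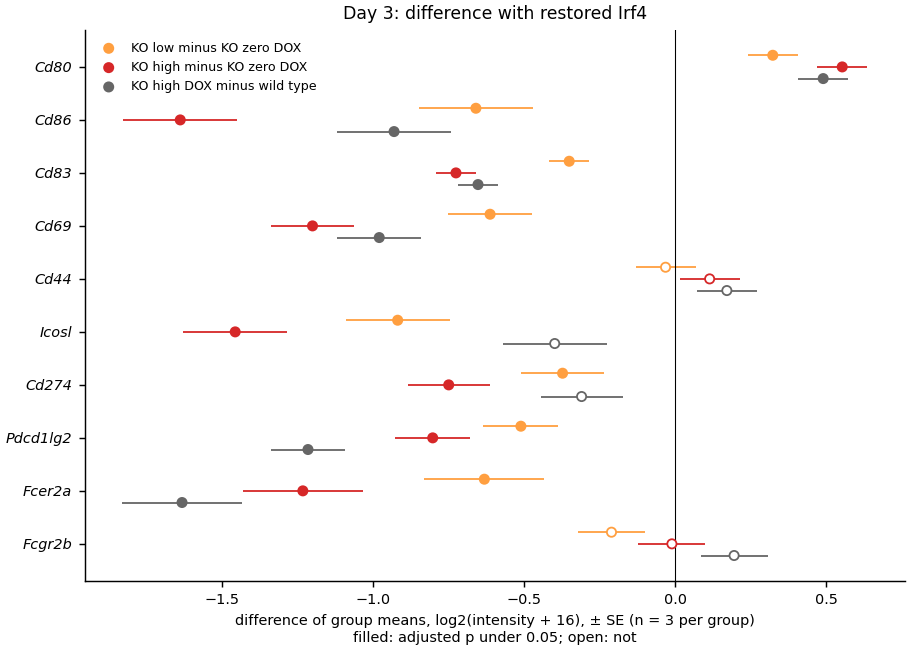
Day 3 differences of low DOX from zero DOX, of high DOX from zero DOX, both in KO cells, and of KO cells with high DOX from wild type, in log2(intensity + 16), with SE (n = 3 per group); filled points have adjusted p under 0.05. Cd80 lies to the right of 0 in each comparison, Cd86, Cd83, Cd69, Pdcd1lg2 and Fcer2a reach -0.65 to -1.64 with high DOX, and Cd44 and Fcgr2b stay near 0 with open points.

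With low DOX as with high DOX, 1 of the 10 genes was higher and 7 were lower than with zero DOX, where 31.6% of all sets were called, with a median of -0.44 against -0.04 over all sets. These comparisons share the zero DOX arrays. Between low and high DOX 10.4% of sets were called, and 4 of the genes, Cd86, Cd69, Icosl and Cd83, were lower (median -0.38, and 0.01 over all sets). Same-numbered KO arrays deviated together. With the replicate number as a block among KO arrays 15.1% of sets were called, and 7 of the 10 genes were lower. Those added were Cd274 (-0.38, adjusted p = 0.00096), Pdcd1lg2 (-0.29, adjusted p = 0.045) and Fcer2a (-0.60, adjusted p = 0.018). Without the block Fcer2a also passed when low DOX replicate 2 (-0.748) or high DOX replicate 3 (-0.910) was left out, Cd274 without high DOX replicate 2 (-0.538) and Cd80, as a rise, without low DOX replicate 2 (0.347). In every same-numbered pair of the 7 genes called lower with the block, the high DOX array read below the low DOX array. These genes were named because they were called from these same arrays, so that agreement was largely given in advance. Such pairs were not counted over all sets.

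Transcripts of other cells moved with the dose. At day 3, 13 of 16 myeloid markers were lower with high than with zero DOX and none higher (median -1.78), all 5 NK cell markers were lower (median -1.91), and 6 of 7 B cell markers were lower (median -0.69; sums 35637 to 41345 against 54317 to 66047). Of 5 plasma cell markers 4 were higher (Jchain, Prdm1, Sdc1 and Xbp1) and none lower (median 2.99); the fifth, Irf4, was read there by set 1421173_at, which did not follow doxycycline. Of 8 T cell markers 2 were higher and 3 lower, of 4 dendritic cell markers 1 was lower and none higher, and both called platelet markers of 3 were lower. No erythroid marker passed the filter. The share of these cells in the falls with dose was not tested.

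Against wild type at day 3 the myeloid sums of high DOX cultures overlapped (2424 to 3408 and 2433 to 2805), with 1 of 16 markers higher and 1 lower. Other lists differed: 5 of 8 T cell markers were higher (median 0.38), and 2 of 3 platelet (-1.705) and 1 of 4 dendritic cell markers were lower. None of 5 NK cell markers was called. The part of these cells was not tested. In that comparison 6 of 10 genes were called, 1 higher and 5 lower, where 37.4% of sets were (median -0.53, and 0.01 over all sets). Cd80 was higher by 0.49 (SE 0.0831, adjusted p = 4.8e-05) and by 1.40 and 2.12 on its other sets, a 4.35-fold difference at most. That largest difference was on 1432826_a_at, where wild type read 111 to 138 in intensity, under the filter's cutoff of 188.2. Fcer2a was lower by 1.63 (SE 0.199, adjusted p = 6.3e-07), and by 2.51 on its other set. Pdcd1lg2 was lower by 1.22 (SE 0.124), Cd69 by 0.98 (SE 0.139), Cd86 by 0.93 (SE 0.189, adjusted p = 0.00037) and Cd83 by 0.65 (SE 0.0664). In each of these 6 genes, named because they were called, the arrays of the groups did not overlap. Such separation was not counted over all sets.

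High DOX left Cd86, which had been 0.71 above wild type with zero DOX, below wild type. For Icosl and Cd274, which had also been above wild type, high DOX differed from it by -0.40 (adjusted p = 0.073) and -0.31 (adjusted p = 0.078). The Cd274 difference passed without high DOX replicate 2 (-0.471, adjusted p = 0.01) and with a term for sex (-0.490), and the Icosl difference with array weights (-0.311, adjusted p = 0.019) and with only the groups compared (adjusted p = 0.02). Both passed with a replicate block (adjusted p = 0.021 for Icosl and 0.034 for Cd274), although the numbers do not pair the genotypes. B cell markers were lower in the high DOX cultures than in wild type in 5 of 7 cases (median -0.37; sums 35637 to 41345 against 51696 to 53791), and 4 of 5 plasma cell markers were higher (median 0.37).

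With low DOX, where 30.6% of sets differed from wild type, the differences of Cd86, Icosl and Cd274 were 0.05 (SE 0.189), 0.14 (SE 0.172) and 0.07 (SE 0.136), none of them called. Fcer2a was lower by 1.03 (SE 0.199, adjusted p = 0.00037), Pdcd1lg2 by 0.92 (SE 0.124), Cd83 by 0.28 (SE 0.0664) and Cd69 by 0.39 (adjusted p = 0.035). Cd80 was higher by 0.26 (adjusted p = 0.02) and by 1.08 and 1.58 on its other sets. The Cd69 call was lost without low DOX replicate 1 or 2 or wild-type replicate 3 (-0.247 to -0.374) and with a term for sex (-0.207), and the Cd80 call without low DOX replicate 2 (0.144) or wild-type replicate 1 (0.242). The median over the 10 genes was 0.01, and -0.01 over all sets. Myeloid sums were 4603 to 7977 with low DOX, above 2433 to 2805 in wild type. All 5 NK cell markers (median 1.36), 3 of 8 T cell and 2 of 5 plasma cell markers were higher. Lower were 2 of 7 B cell, 1 of 4 dendritic cell and 1 of 3 platelet markers. The part of these cells was not tested.

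After 1 day few of these genes differed with dose. Between high and zero DOX 1.59% of sets were called, and of the 10 genes Cd69 alone, which read 11.01, 10.90 and 11.30 with high DOX and 11.57, 11.53 and 11.78 with zero DOX (difference -0.56, SE 0.139, adjusted p = 0.04). The groups did not overlap, but the call was lost without any 1 of high DOX replicates 1 and 2 and the 3 zero DOX arrays (-0.472 to -0.604), and without both arrays that went against their labels (-0.604, adjusted p = 0.08). With the replicate number as a block among KO arrays 3.33% of sets were called. Cd69, Icosl (-0.63, adjusted p = 0.0084) and Cd274 (-0.44, adjusted p = 0.0016) were then lower. With this block these 3 genes were also called without both arrays that went against their labels (Cd69 -0.536, Icosl -0.711, Cd274 -0.467), where 2.68% of sets were. Without the block Icosl and Cd274 had adjusted p of 0.063 and 0.12. All high DOX arrays of both lay below all zero DOX arrays, 1 of which went against its label. Such separation was not counted over all sets. The median was -0.19, against -0.01 over all sets. Myeloid sums were lower beside them, 4309 to 5799 against 6708 to 9081, and their part was not tested.

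Low and zero DOX at day 1 did not differ in any of the 10 genes by limma's test, and 0% of sets were called, with 90 of 26095 sets at an unadjusted p under 0.05. This comparison holds both arrays that went against their labels. The 10 differences lay between -0.05 and 0.03, and their median was -0.02 (-0.01 over all sets). Without both arrays none of the 10 was called either (differences -0.159 to 0.022).

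Genes of the same pathways were read beside the members. Their counts stand against 45.5% of all sets called and a median of -0.01 between high and zero DOX at day 3, 37.4% and 0.01 for high DOX against wild type, and 80.1% and -0.17 for wild type over day 1. Of 31 other costimulatory and coinhibitory genes 23 were tested, and between high and zero DOX at day 3, 9 were higher and 9 lower (median -0.13). Cd24a, a surface glycoprotein of B lineage cells, was 2.18 higher (SE 0.0936), Tnfsf9, the ligand of 4-1BB, 2.13 higher (SE 0.123) and Vsir, an inhibitory receptor and ligand of the same family as Cd274, 2.11 higher (SE 0.146). Cd72, an inhibitory B cell coreceptor, was lower (difference -1.77, SE 0.118). In wild-type cells over day 1 the same list split 10 to 11, with Tnfsf9 rising by 3.29, Havcr1 by 2.30 and Cd70, the ligand of CD27, by 2.16, while Cd2 fell by 3.35.

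The receptors that the members engage on T cells were themselves measured. Cd28, which long-lived plasma cells also carry and which is in the T cell marker list too, was 2.28 higher with high than with zero DOX at day 3 (SE 0.175), Ctla4 0.80 higher and Pdcd1 0.53 higher, while Icos was lower (-0.29). Of 8 other Fc receptor genes tested, 5 were lower with high DOX and none higher (median -0.81): Fcgr3 differed by -2.29, the neonatal Fc receptor gene Fcgrt by -1.52, Fcrl1 by -1.07 and Fcer1g, the shared signalling chain, by -1.07. Fcgr3 and Fcer1g are also in the myeloid list. Against wild type Fcrl1 (-1.13) and Fcgrt (-1.09) were lower and no other gene of the list was called.

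Of 10 other early activation surface genes 7 were higher and 2 lower with high DOX (median 0.58). Cd93, a surface protein of plasma cells, was 2.89 higher, Spn 1.16 and Il2ra, the IL-2 receptor alpha chain, 1.13 higher, and S1pr1, the egress receptor that CD69 opposes, was lower (-1.02). So Cd69 and S1pr1 were lower together. All 10 interferon-induced genes were lower (median -1.37, led by Gbp2 at -1.65), 5 of 6 IL-4 responsive genes were lower and 1 higher (median -1.22, with Socs1, a feedback inhibitor of cytokine signals, at -1.60), and 7 of 8 NF-kB targets were lower (median -0.50, with Cd40, which is also in the costimulatory list, at -1.25). Xbp1 and Bcl6, regulators of plasma cell and germinal centre fates, are in the IL-4 list. Against wild type, high DOX left 3 interferon-induced genes higher and 1 lower (median 0.12).

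Across the 10 group means some members ran together, given as Pearson's r over 10 means of 3 arrays, all from cells of 2 genotypes. Cd69 and Icosl gave r = 0.96, Cd274 and Fcgr2b 0.94, Cd83 and Cd69 0.86, Cd44 and Fcgr2b -0.91, and Cd80 and Fcer2a -0.74. The genes most like each member by this measure were Slc12a8 (0.974) and Rab2a (0.967) for Cd80, Lpar6 (0.966) and Nbdy (0.927) for Cd86, and B4galt3 (0.987) and Wfdc21 (0.983) for Icosl. For Cd274 they were Myo18a (0.99) and Map3k5 (0.989), for Pdcd1lg2 Tec (0.979) and Tmem241 (0.977), for Fcer2a Pgap2 (0.975) and Cep41 (0.952), and for Fcgr2b Tpcn1 (0.996) and Gab3 (0.993). For Cd69 they were Dusp2 (0.982) and Birc3 (0.98), for Cd44 Naa15 (0.983) and Mtfmt (0.975), and for Cd83 Rbms1 (0.971) and Ap1m1 (0.966). These are the best matches among all genes tested, over 10 points.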

How the data were processed

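The samples were 30 Affymetrix Mouse Genome 430 2.0 arrays, 3 in each of 10 groups named from the sample labels. Per the series text, the authors deposited normalized linear intensities from dChip's model for perfect-match probes. MAS5 appears in the submitters' processing notes as well, its role unstated. The authors' deposited intensities were taken as log2(intensity + 16), which understates changes of low values. Control sets were left out, and 26095 of 45037 probe sets passed the filter (over the table's median of 188.2 on at least 3 arrays). Of the 45037 sets 34945 carried 1 gene symbol, 932 several and 9160 none. Symbols came from GEO's platform annotation, and for 34741 sets the symbol was taken from RefSeq by Entrez number, whether or not it changed. A set of several symbols named no gene.

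limma 3.58.1 in R 4.3.3 (lmFit, contrasts.fit, eBayes) was fitted to all arrays with 1 mean per group, and p-values of each of 16 contrasts were Benjamini-Hochberg adjusted over all tested sets, with a threshold of 0.05. An exact test of 3 against 3 arrays cannot go below 0.1, and precision is limited by how many arrays there are. The 10 members, the other gene lists and the markers were chosen with earlier results of these data known. Genes named from a list are up to 4 of its called genes with the largest differences, and the genes most like a member are those with the highest Pearson's r over group means. A list is described by its counts and median. Whether arrays of groups overlap was described for single genes and not counted over all sets.

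Replicate numbers are shared between groups. Residuals of same-numbered KO arrays correlated at 0.3 to 0.85 (63 of 63 pairs over 0.1), so the numbers pair KO arrays. Between genotypes 7 of 63 pairs lay over 0.1. Alternatives were other pseudocounts, filters, scalings, fits and probe sets, a replicate block, a term for sex, array weights and each array left out. Promoter windows are RefSeq's.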

Additional observations from a re-analysis of the deposited data

Results flagged for a closer look

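The change from day 0 to day 1 differed between KO and wild-type cells in 5 of the 10 genes by the interaction of genotype and day (KO change minus wild-type change, limma). In that test 41.8% of all sets were called, so the count itself does not set the members apart. The interaction was 1.469 for Icosl, 1.08 for Fcer2a, 0.619 for Cd69 and 0.564 for Cd274, and -0.761 for Cd44. Icosl fell less in KO cells, Fcer2a rose more from a lower start, and Cd44 rose less. With arrays centred on their medians 39.8% of sets and 3 of these genes were called, Cd69 and Cd274 being lost. The change from day 1 to day 3 differed in 2 genes, where 28.4% of sets were called, Cd44 with 0.428 and Cd274 with -0.541. That count too does not set the members apart, and neither gene was called without both day 1 arrays that went against their labels. The KO cells of day 0 also held more myeloid transcript than wild type (sums of 8261 to 21129 against 3751 to 3915), and its part in these differences was not tested. Groups of 3 arrays are too small for a test of single outlying arrays, so none was made.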

How the results depend on the processing

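Of the comparisons of single genes with an alternative, 3144 stayed on the same side of the threshold (105 of them, called in neither fit, with the other sign), 114 lost their call, 78 gained one and 4 reversed. The reversed ones came from reading a gene by its set of largest variance: for day 1 against day 0, Cd80 gave 1.005 in wild type and 0.998 in KO cells, and Cd86 gave 0.944 and 1.107. For high against zero DOX at day 1, 1 gene was called, where 1.59% of sets were. Median centring (0.924% of sets called), no filter (0.668%) and fitting only the groups compared (0%) gave 0. Leaving out both day 1 arrays that went against their labels also gave 0 (0.885%). A stricter filter (2.72%), adjusting over 1 set per gene (2.68% of those sets) and array weights (3.89%) gave 2. The replicate block gave 3 (2.82%), also among KO arrays alone (3.33%) and there also without both such arrays (2.68%). A term for sex gave 4 (3.05%). For high against low DOX at day 3, with 4 genes called, the replicate block and array weights gave 8, the block among KO arrays 7 and only the groups compared 1, where 13.3%, 28.1%, 15.1% and 4.73% of all sets were called (10.4% before). Array weights gave 8 for KO against wild type at day 1 and 7 at day 3, with 65.7% and 48.3% of all sets called against 46.6% and 34.8%. Median centring gave 3 for the interaction over day 1 (39.8% of sets called) and 1 for that over days 1 to 3 (32.2%). The latter was 0 without both such arrays (21.8%). The set of largest variance gave 3 for KO cells from day 1 to day 3 (49.1%). Fitting only the groups compared gave 3 for low DOX against wild type (25.1%). The cause of these shifts was not tested. Replicate numbers pair KO arrays but not the genotypes, and the block changed no other count by over 1.5 times.

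Leaving out 1 array at a time gave these ranges of genes called. The shares of all sets called in those fits are not given, so the ranges cannot be set against them. For high against zero DOX they were 0 to 1 at day 1 and 8 to 8 at day 3, for low against zero DOX 0 to 0 and 6 to 8, and for high against low DOX 2 to 5. Against wild type they were 6 to 7 with high DOX and 3 to 5 with low DOX, and 4 to 6, 4 to 5 and 2 to 4 with zero DOX at days 0, 1 and 3. Over time they were 9 to 10 and 5 to 6 in wild type, 7 to 9 and 4 to 5 in KO cells, and 4 to 5 and 0 to 2 for the interactions. Where median centring moved the median of all sets by over 0.1, it was by 0.162 for wild type at day 1 against day 0, -0.127 at day 3 against day 1, -0.141 for KO against wild type at day 1, and -0.17 and 0.149 for the interactions. It moved the share of higher sets among those called from 59.1% to 42.9% for wild type from day 1 to 3, from 64.2% to 34.0% and from 38.7% to 70.9% for the interactions, and at day 3 from 52.6% to 37.0% for high against low DOX. At day 1 the share went from 47.8% to 61.4% for high against zero DOX.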
